A study of Mus musculus with 4 samples.

Results

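Retinoic acid, the active form of vitamin A, is made, carried, broken down and sensed by the products of a small set of genes, and 10 of them were followed here in mouse dermal white adipose tissue (dWAT), the fat layer under the dermis that surrounds the lower ends of hair follicles (HFs). The genes were taken by symbol from a fixed list of enzymes, binding proteins and receptors, and all 10 were found among the 22913 genes of the files. They are the retinol receptor Stra6, the retinal reductase Dhrs3, the retinal dehydrogenases Aldh1a1, Aldh1a2 and Aldh1a3, the binding proteins Crabp1 and Crabp2, the retinoic acid hydroxylase Cyp26b1 and the nuclear receptors Rarb and Rarg. The study sequenced RNA of dWAT microdissected from C57BL/6 mice, in 1 library for each of 4 groups. These were old mice of 18 months in telogen (OTD), young mice of 2 months in telogen (YTD), old mice in anagen (OAD) and young mice in anagen (YAD), where telogen is the resting and anagen the growth phase of the HF. Anagen was brought on by depilation, and the day of collection after depilation is not in the labels. Per the study's methods the tissue of a group came from several mice and was scraped off below the HFs after the subcutaneous fat and the muscle layer had been taken away, and how the mice were joined into a library is not given in the sources used here. The titles of the samples set the groups. The age field of YTD reads 18 months and that of OAD 2 months, against their titles, so by the age fields both telogen libraries would be old and both anagen libraries young. Each comparison below, between phases at a given age as well as between ages, therefore rests on the titles.

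In background terms, retinol reaches a cell bound to a carrier protein and can enter it through STRA6. Alcohol dehydrogenases and retinol dehydrogenases turn retinol into retinal, DHRS3 turns retinal back into retinol, and the ALDH1A enzymes oxidise retinal to retinoic acid in a step that is not reversed. CRABP1 and CRABP2 bind retinoic acid in the cytoplasm, CYP26 enzymes clear it, and retinoic acid receptors (RARs) paired with retinoid X receptors (RXRs) bind DNA and switch target genes, among them Rarb, Dhrs3, Stra6, Crabp2 and the Cyp26 genes themselves. Vitamin A status is known to alter the hair cycle, and in fat cells and their precursors retinoids are known to act on differentiation and lipid use.

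Expression was given as FPKM, by definition fragments mapped to a gene scaled to its length and to the mapped fragments of the library. Any further scaling between the libraries is not given in the sources. For all 10 genes the listed length was a coding length, that of an annotated coding sequence with its stop codon. Whether fragments outside the coding sequence were counted is not known, so comparisons of level between genes are rough. Counts were not used here, and depth was estimated at about 20000000 (OTD), 19000000 (YTD), 25000000 (OAD) and 24000000 (YAD) fragments from the smallest step between FPKM values, and the 95% intervals below (exact Poisson for a level, exact binomial for a ratio) cover counting error at this depth only. With 1 library per group there is no spread between replicates, no test and no p-value, so what is compared throughout are single libraries. Differences are those of log2(FPKM + 1), a scale that makes those of weakly expressed genes look smaller, and a difference of at least 1 in size was taken as past the threshold. Mitochondrially encoded genes took up 52.7% (OTD), 44.7% (YTD), 18.3% (OAD) and 14.4% (YAD) of all FPKM. The adipocyte markers of the fixed list were above 0 in each library, with sums of 8147 in OTD and 6838 in YTD, and 2854 in OAD and 2012 in YAD. Markers of skeletal muscle (58062, 91430, 13885 and 10506 in the same order) and of hair shaft and inner root sheath (278, 496, 29742 and 23931) were present beside them, so the libraries held RNA of more than fat.

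More of the 10 genes were past the threshold between hair cycle phases than between ages, as was the case over all genes. Of all genes above 0, 16.1% were higher and 15.6% lower between phases in old mice, and 16.1% and 16.7% in young mice. Between ages these shares were 1.67% and 1.93% in telogen and 0.727% and 0.454% in anagen. Stra6, Crabp1, Crabp2, Rarg and Aldh1a3 were past the threshold upwards in anagen and Aldh1a1 downwards, in old as in young mice. Between old and young mice no gene of the 10 was past the threshold in telogen, and only Aldh1a3 was in anagen, where it was lower in OAD than YAD. In telogen, Aldh1a1 was the most abundant of the 10. In anagen, Rarg and Stra6 had the highest levels. In bulk tissue fewer cells of a type and less RNA per cell cannot be told apart. Gene positions below are on GRCm38.

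**Figure D1:**
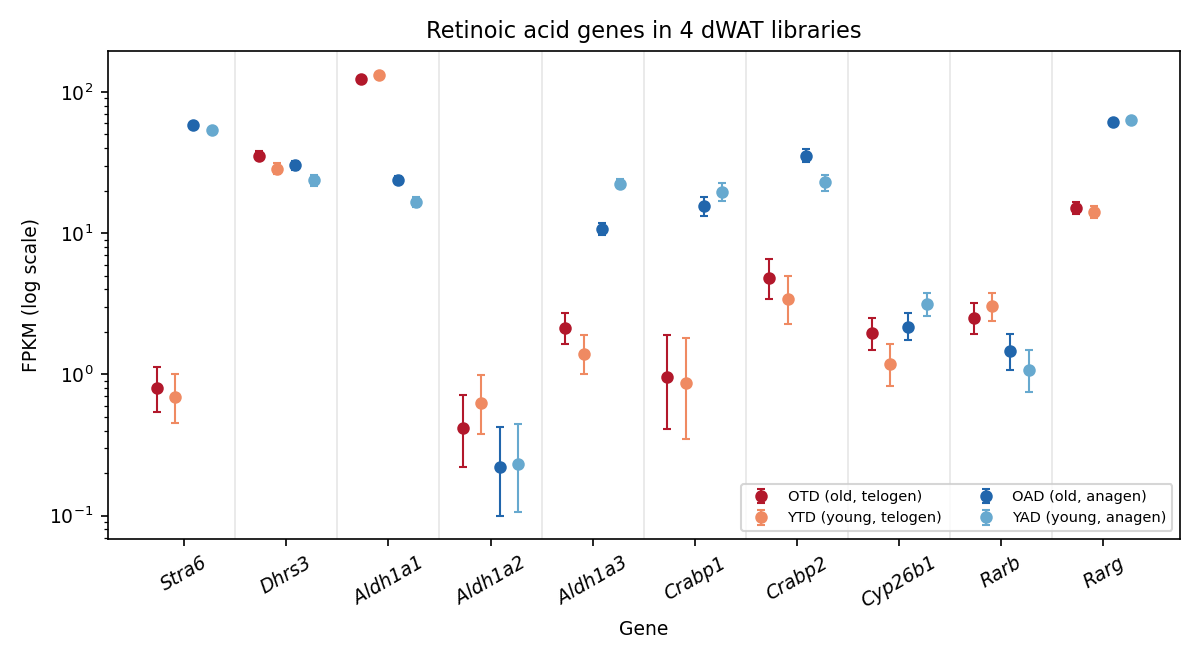
FPKM (vertical axis, log scale) of the 10 retinoic acid genes (horizontal axis) in the 4 libraries, OTD and YTD in reds and OAD and YAD in blues. Points are single libraries and bars are 95% exact Poisson intervals for counting error only. The anagen values of Stra6, Crabp1, Crabp2, Aldh1a3 and Rarg lie above both telogen values, and those of Aldh1a1 below them.

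The DNA in front of the genes was read from RefSeq promoter windows (GRCm38.p6), each with 250 bases before a gene start and 50 after it. Of the 10 genes, 8 had a window, and Aldh1a3 and Crabp2 had no entry. RAR and RXR pairs bind repeats of the hexamer AGGTCA and its variants. The consensus AGGTCA, the variant AGTTCA, the further variant GGGTCA and the last variant GGTTCA were searched as hexamers on both strands, and as direct repeats with 1, 2 or 5 free bases between them. Any single hexamer was found in 43.7% of 32851 windows, and a direct repeat in 0.222% (1 base between), 0.268% (2 bases) and 0.0974% (5 bases). Of the 15 windows of the listed genes, 4 held a hexamer, those of Aldh1a1, Rarb, Rarg and Stra6, and 1 held a direct repeat, that of Rarb with 5 bases between. The repeat of Rarb lies at chr14:16575513-16575529 on the minus strand, 53 to 37 bases before the gene start of the window and within an annotated exon of another Rarb transcript. Shown are Rarb for its repeat, Rarg and Aldh1a1 for a hexamer in genes past the threshold, and Stra6 as the gene with the largest difference. The stretches are given 5′ to 3′ on the strand of the gene, with hexamers in capitals (TGACCC in Aldh1a1 is such a hexamer read on the other strand, as is TGACCT in Rarg). They lie at chr14:16575507-16575535 (minus strand) for Rarb, chr15:102257523-102257772 (minus strand) for Rarg, chr9:58128838-58129087 (plus strand) for Stra6 and chr19:20601718-20601957 (plus strand) for Aldh1a1. By GENCODE M21 the stretches of Stra6 and Aldh1a1 overlap no exon and lie inside the span of the same gene, which has transcripts that start further upstream, and that of Rarg lies outside any gene. The stretch of Aldh1a1 was cut to 240 bases, ending 11 before the gene start, to leave out an annotated exon. Its lack of exon overlap was thus set by the cut. For Stra6, which has 4 windows, the one shown holds no hexamer.
Rarb: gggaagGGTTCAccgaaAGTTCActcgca
Rarg: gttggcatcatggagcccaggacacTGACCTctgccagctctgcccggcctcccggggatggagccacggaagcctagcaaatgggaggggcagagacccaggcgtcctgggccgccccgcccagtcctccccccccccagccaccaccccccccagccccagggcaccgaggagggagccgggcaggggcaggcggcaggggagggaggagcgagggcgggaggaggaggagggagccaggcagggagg
Stra6: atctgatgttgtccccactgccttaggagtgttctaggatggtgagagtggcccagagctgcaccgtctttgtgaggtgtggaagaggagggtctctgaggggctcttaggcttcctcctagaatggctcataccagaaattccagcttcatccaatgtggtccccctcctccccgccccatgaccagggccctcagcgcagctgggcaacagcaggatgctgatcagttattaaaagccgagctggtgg
Aldh1a1: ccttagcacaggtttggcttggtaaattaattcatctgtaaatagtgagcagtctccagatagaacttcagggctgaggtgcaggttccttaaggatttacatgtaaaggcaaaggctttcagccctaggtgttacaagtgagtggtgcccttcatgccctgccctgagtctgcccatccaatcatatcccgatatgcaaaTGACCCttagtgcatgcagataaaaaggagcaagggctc
A match of these letters is a description of the sequence and not a measured binding site.

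Between the growth and the resting phase, 5 of the 10 genes were higher past the threshold in OAD than OTD, against 16.1% of the 17712 genes above 0 in either library, and 1 was lower, against 15.6%. In young mice the same 5 genes were higher in YAD than YTD, against 16.1% of 17622 genes, and the same 1 was lower, against 16.7%. The OAD and OTD pair shares no library with the YAD and YTD pair. The median difference of the 10 genes was 1.0 in old and 1.5 in young mice, where that of all genes was 0.01 and 0.02. After rescaling to TPM the median of all genes with an FPKM of at least 1 moved to 0.58 in old and 0.76 in young mice, and the medians of the 10 genes relative to it were 0.87 and 1.44. Under that scaling 76.6% of all genes past the threshold in old mice and 82.2% of those in young mice were higher in anagen, in place of 50.8% and 49.1%.

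**Figure D2:**
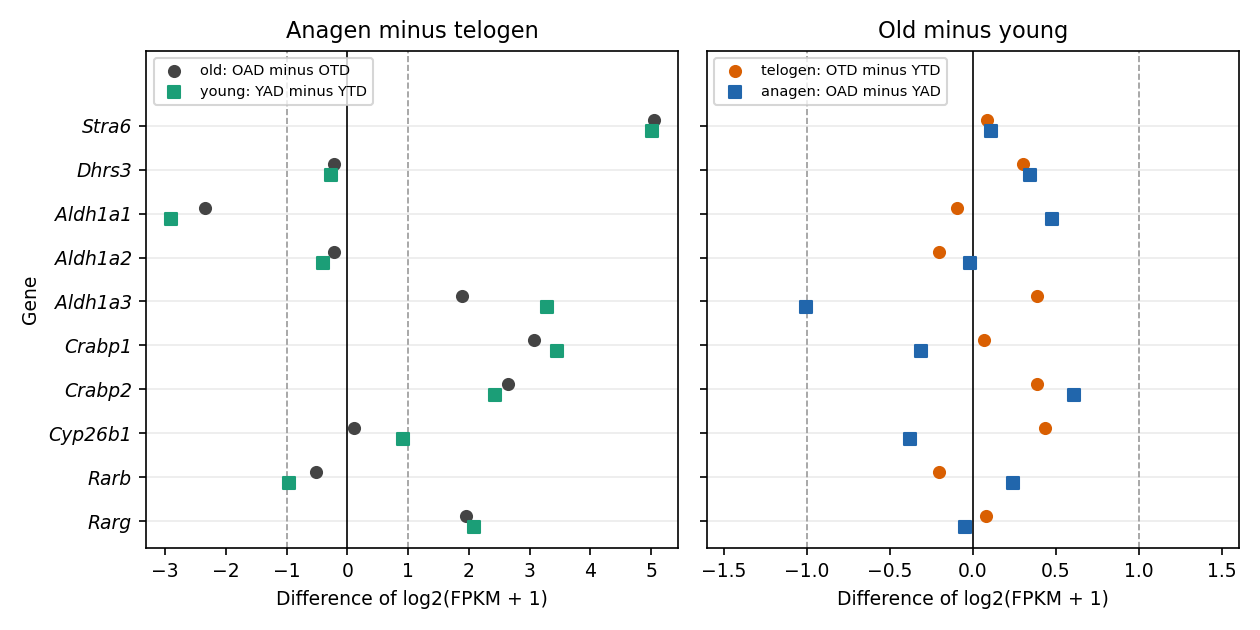
Differences of log2(FPKM + 1) (horizontal axes) for the 10 genes (vertical axis), anagen minus telogen on the left and old minus young on the right. Each point is a difference between single libraries and the dashed lines mark the threshold of 1. On the left Stra6 lies near 5 at both ages and Aldh1a1 below -2. On the right only Aldh1a3 in anagen reaches a line.

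Stra6, the membrane receptor that takes up retinol from its carrier, lay at 0.797 FPKM in OTD and 0.694 in YTD, and 58.3 in OAD and 53.9 in YAD. It was near the low end of the list in telogen and near the top in anagen, and the phases did not overlap. It was 73.1-fold higher in OAD than OTD (95% interval 51.7 to 107) and 77.6-fold higher in YAD than YTD (53.0 to 119), the largest ratio of the 10 genes at both ages. Over all genes, 190 had a larger difference upwards in old mice and 117 in young mice. Stra6 (ENSMUSG00000032327) spans chr9:58079310-58153996 on the plus strand, and its span overlaps Ccdc33 on the other strand, which was at 0 in 3 libraries and at 0.0177 FPKM in YAD.

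Dhrs3, which reduces retinal and so draws it away from retinoic acid synthesis, was among the steadier genes of the list, with 35.4 FPKM in OTD and 28.5 in YTD, and 30.3 in OAD and 23.6 in YAD. The highest level was 1.5-fold the lowest. It was slightly lower in anagen, by 0.22 on the log2 scale in old and 0.26 in young mice, and these directions turned in TPM, where it was 0.38 and 0.55 higher in anagen, and in young mice (to 0.02) also in TPM without mitochondrial, muscle and keratin genes. It was higher in old than in young mice in both phases, 1.24-fold in telogen (1.10 to 1.40) and 1.28-fold in anagen (1.14 to 1.44). The direction of these age differences held under each scaling tried. Their size did not, as in TPM the log2 difference in anagen was 0.12 in place of 0.34. Dhrs3 is ENSMUSG00000066026, at chr4:144892827-144928209 on the plus strand.

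The 3 retinal dehydrogenases, which make retinoic acid from retinal, differed in level and in direction. Aldh1a1 lay at 124 FPKM in OTD and 132 in YTD, and at 23.7 in OAD and 16.7 in YAD. It was 5.22-fold lower in OAD than OTD (4.85 to 5.62) and 7.89-fold lower in YAD than YTD (7.24 to 8.61). Only 306 genes in old and 228 in young mice had a larger difference downwards. Aldh1a7, a near-identical neighbour that the counting could mix with Aldh1a1, went the same way from 5.87 and 4.26 FPKM in OTD and YTD to 1.90 and 1.73 in OAD and YAD, so the split of fragments between them is uncertain. Aldh1a1 is ENSMUSG00000053279, at chr19:20601961-20643462 on the plus strand.

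Aldh1a3 ran the other way, with 2.14 FPKM in OTD and 1.40 in YTD, and 10.7 in OAD and 22.4 in YAD. All of its anagen values were above its telogen values, and YAD was above OAD. It was 4.99-fold higher in OAD than OTD (3.84 to 6.57) and 16.0-fold higher in YAD than YTD (11.7 to 22.4). Aldh1a3 is ENSMUSG00000015134, at chr7:66390892-66427517 on the minus strand.

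Aldh1a2 was barely detected, with 0.417 FPKM in OTD and 0.632 in YTD, and 0.221 in OAD and 0.234 in YAD, or about 9 to 19 fragments a library. It is ENSMUSG00000013584, at chr9:71215789-71296243 on the plus strand. Its ratio between YTD and YAD was 2.70 (1.15 to 6.86), and the interval of the ratio between OTD and OAD, 0.737 to 5.10, included 1. The intervals of its level in OTD and YTD overlapped, and so did those in OAD and YAD, so no difference with age was detectable at this depth.

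The make-up of the ALDH1A family was compared within each library, where the scaling between libraries drops out. Aldh1a1 held 98.0% of the summed FPKM of the 3 genes in OTD and 98.5% in YTD, but 68.5% in OAD (exact binomial interval 65.9% to 71.0%) and 42.5% in YAD (39.9% to 45.1%). Aldh1a3 held 1.70% in OTD and 1.05% in YTD, and 30.9% in OAD (28.4% to 33.5%) and 56.9% in YAD (54.3% to 59.5%). YAD was the only library of the 4 in which Aldh1a3 exceeded Aldh1a1. The sum of the 3 genes was 126 FPKM in OTD and 134 in YTD, and 34.6 in OAD and 39.4 in YAD. The total was lower in anagen, as was Aldh1a1.

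**Figure D3:**
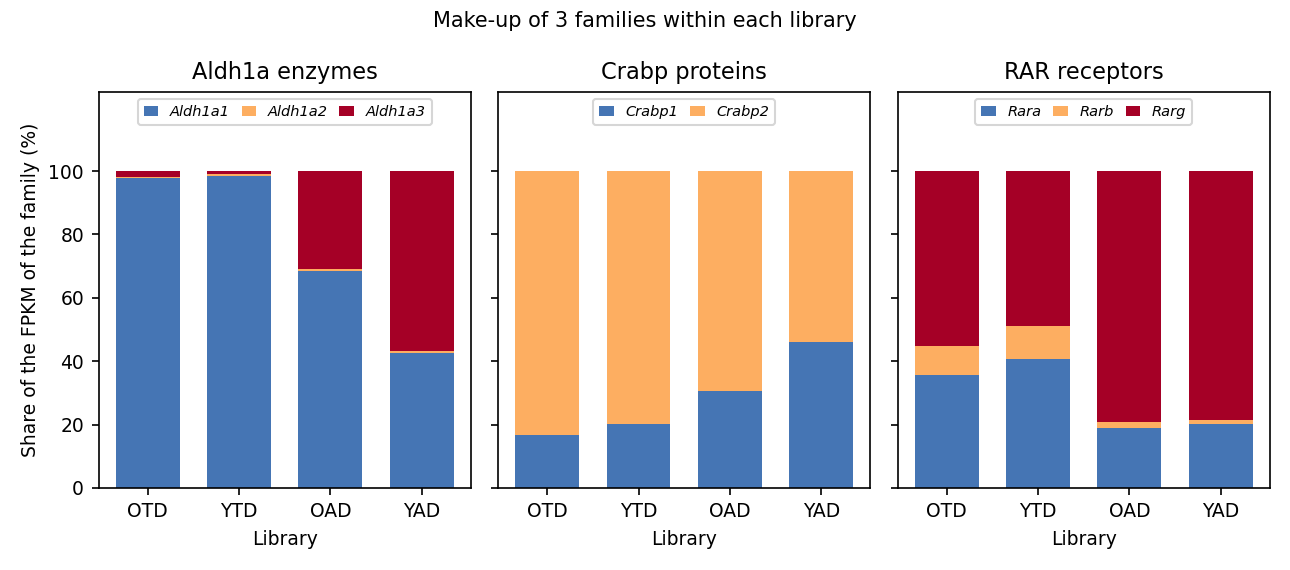
Share of the summed FPKM of a family (vertical axes, percent) held by each gene in each library (horizontal axes), for the ALDH1A enzymes, the CRABP proteins and the RARs. Bars are stacked to 100 and come from single libraries. Aldh1a1 fills nearly the whole ALDH1A bar in OTD and YTD and 42.5% of it in YAD, and Rarg takes 79.1% and 78.5% of the RAR bar in OAD and YAD.

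The binding proteins were both higher in anagen. Crabp1 lay at 0.959 FPKM in OTD and 0.872 in YTD, and 15.6 in OAD and 19.6 in YAD. The telogen values rest on about 8 and 7 fragments, so the ratios of 16.2 in old mice (8.01 to 38.4) and 22.4 in young mice (10.6 to 57.2) have wide intervals. Crabp2, which hands retinoic acid to the RARs, lay at 4.79 FPKM in OTD and 3.44 in YTD, and 35.4 in OAD and 22.9 in YAD. It was 7.39-fold higher in OAD than OTD (5.32 to 10.5) and 6.65-fold higher in YAD than YTD (4.46 to 10.3). For both genes the phases did not overlap. Crabp2 exceeded Crabp1 in each library, 5.0-fold in OTD and 3.94-fold in YTD, but 2.28-fold in OAD and 1.17-fold in YAD, and in YAD the interval of the Crabp1 share, 41.3% to 50.9%, reached an even split. Crabp1 is ENSMUSG00000032291, at chr9:54764748-54773110 (plus strand), and Crabp2 is ENSMUSG00000004885, at chr3:87948666-87953376 (plus strand).

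Cyp26b1, which hydroxylates retinoic acid for removal, stayed low, with 1.95 FPKM in OTD and 1.19 in YTD, and 2.18 in OAD and 3.14 in YAD. Only the young pair separated beyond counting error between phases, with a 2.64-fold higher level in YAD than YTD (1.79 to 3.97), which is a log2 difference of 0.92 and short of the threshold. It was past the threshold with smaller pseudocounts (1.33 and 1.39) and in TPM, between 1.20 and 1.5 over the 3 TPM scalings. In old mice the ratio was 1.12 (0.794 to 1.59), and its sign turned in TPM without mitochondrial genes, to -0.01 on the log2 scale. The other clearing enzymes, Cyp26a1 and Cyp26c1, were listed at or near 0 in each library, with no more than 0.255 FPKM. Cyp26b1 is ENSMUSG00000063415, at chr6:84571414-84593908 on the minus strand.

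The receptors Rarg and Rarb differed in direction. Rarg lay at 15.1 FPKM in OTD and 14.2 in YTD, and 61.1 in OAD and 63.1 in YAD, with no overlap between phases. It was 4.06-fold higher in OAD than OTD (3.65 to 4.52) and 4.45-fold higher in YAD than YTD (3.98 to 4.98). Rarb, a direct target of its own receptor family and the gene with the repeat shown above, lay at 2.51 FPKM in OTD and 3.04 in YTD, and 1.46 in OAD and 1.07 in YAD. It was 1.72-fold lower in OAD than OTD (1.17 to 2.54) and 2.83-fold lower in YAD than YTD (1.87 to 4.35), and its log2 differences of -0.51 and -0.96 were short of the threshold. In young mice it was past the threshold with smaller pseudocounts, at -1.42 and -1.49. Set beside Rara, a receptor gene of the same family outside the 10, Rarg held 55.2% of the summed RAR FPKM in OTD and 48.9% in YTD, against 79.1% in OAD and 78.5% in YAD. The share of Rarb was 9.18%, 10.5%, 1.88% and 1.34% in the same order, and the intervals of its share in telogen (7.19% to 11.5% and 8.36% to 12.9%) lay clear of those in anagen (1.40% to 2.48% and 0.932% to 1.85%). The ratio of Rarg to Rarb was thus 6.01 in OTD and 4.67 in YTD, and 42.0 in OAD and 58.8 in YAD. Rarg is ENSMUSG00000001288, at chr15:102234938-102257517, and Rarb is ENSMUSG00000017491, at chr14:16430842-16575472, both on the minus strand.

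Listed from high to low, the order in OTD was Aldh1a1, Dhrs3, Rarg, Crabp2, Rarb, Aldh1a3, Cyp26b1, Crabp1, Stra6 and Aldh1a2. The counting intervals of neighbours overlapped from Rarb to the end of that order, so adjacent places were resolved only for the 4 genes at its top, while Rarb, Aldh1a3 and Cyp26b1 lay clear of Stra6 and Aldh1a2. YTD gave the same order, with overlap between Crabp2 and Rarb and between neighbours from Aldh1a3 downwards. In OAD the order was Rarg, Stra6, Crabp2, Dhrs3, Aldh1a1, Crabp1, Aldh1a3, Cyp26b1, Rarb and Aldh1a2, and the pairs Rarg and Stra6, Crabp2 and Dhrs3, and Cyp26b1 and Rarb overlapped. In YAD it was Rarg, Stra6, Dhrs3, Crabp2, Aldh1a3, Crabp1, Aldh1a1, Cyp26b1, Rarb and Aldh1a2, with overlap between neighbours from Dhrs3 to Aldh1a1. Aldh1a1 thus went from the top of the list in telogen to place 5 in OAD and place 7 in YAD.

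The comparison of old with young mice asks whether ageing changes dWAT in either phase, and it uses the same libraries as the comparison of phases. In telogen, 0 of the 10 genes were past the threshold, against 1.67% of 17230 genes above 0 in either library that were higher and 1.93% that were lower in OTD. The median difference of the 10 was 0.08, beside -0.03 for all genes. Intervals that excluded 1 were those of Cyp26b1, 1.64-fold higher in OTD (1.06 to 2.57), Aldh1a3, 1.53-fold higher (1.02 to 2.31), Dhrs3, given above, and Aldh1a1, 1.07-fold lower (1.02 to 1.12). The other 6 intervals included 1, among them those of Crabp2, 1.39-fold higher (0.835 to 2.36), and Rarg, 1.06-fold higher (0.921 to 1.23). The difference of Aldh1a1 changed sign when mitochondrial genes were left out of the scaling, to 0.12 on the log2 scale.

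In anagen, 0 of the 10 genes were higher past the threshold in OAD than YAD, against 0.727% of 17613 genes, and 1 was lower, against 0.454%. The 1 gene was Aldh1a3, 2.10-fold lower in OAD (1.86 to 2.37), with a log2 difference of -1.004, just at the threshold. Only 76 genes had a larger difference downwards. The range of this difference over the scalings was -1.24 to -0.99, so the call was lost under the one that gave -0.99, a median of ratios. Crabp2 was 1.55-fold higher in OAD (1.31 to 1.83) and Aldh1a1 1.41-fold higher (1.27 to 1.57). Cyp26b1 was 1.44-fold lower (1.07 to 1.92) and Crabp1 1.26-fold lower (1.02 to 1.56). Rarg (1.03-fold lower, 0.971 to 1.10) had an interval that included 1, as had Rarb (1.36-fold higher, 0.861 to 2.16). Stra6 was 1.08-fold higher (1.03 to 1.14), a difference that changed sign in TPM, to -0.12 on the log2 scale. The median difference of the 10 was 0.05, beside 0.00 for all genes, and in TPM 37.3% of all genes past the threshold were higher in OAD, in place of 61.5%.

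Other genes of the retinoid pathway were taken from 5 lists of 60 genes in all. In telogen 0 of the 53 that were above 0 were past the threshold with age, against 1.67% of all genes higher and 1.93% lower. In anagen it was 0 of 58, against 0.727% and 0.454%, and both counts are near these shares. Between phases, 13 were higher and 9 lower past the threshold in OAD than OTD, of 57 above 0, and 9 were higher and 8 lower in YAD than YTD, of 55. The shares over all genes given above, 16.1% higher and 15.6% lower in old and 16.1% and 16.7% in young mice, stand beside these counts and those of each list below, and the lower counts at both ages and the higher count in young mice are near them. The median of those above 0 was 0.09 in old and -0.04 in young mice, beside 0.01 and 0.02 for all genes.

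In the list of 11 genes of retinol transport and storage, 3 were higher and 2 lower past the threshold in old mice and 3 higher and 1 lower in young mice. Rbp2, an intestinal retinol-binding protein gene, lay at 0.338 and 0.244 FPKM in OTD and YTD and at 9.78 and 5.78 in OAD and YAD. Rbp4, the retinol carrier that STRA6 binds, was 2.95-fold lower in OAD (2.64 to 3.30) and 3.81-fold lower in YAD (3.35 to 4.35), against the direction of Stra6. Lrat, which stores retinol as esters, was past the threshold in young mice, with 0.659 FPKM in YTD and 2.50 in YAD. In old mice its log2 difference was 0.85, also upwards. Bco1, which cleaves carotene to retinal, was past the threshold in old mice, from 0.0647 FPKM in OTD to 1.45 in OAD. In young mice its log2 difference was 0.96, also upwards and short of the threshold. Rbp7 was past it downwards in old mice, with 13.9 FPKM in OTD and 5.22 in OAD, and stood at 8.92 in YTD and 10.7 in YAD. The most abundant gene of the list was Scarb1, a lipoprotein receptor, with 116, 91.1, 60.6 and 49.5 FPKM in OTD, YTD, OAD and YAD.

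Of 19 oxidoreductases of retinol and retinal, 6 were higher and 3 lower past the threshold in old mice and 4 higher and 3 lower in young mice. Rdh12 was 23.1-fold higher in OAD than OTD (13.7 to 42.4) and 15.7-fold higher in YAD than YTD (9.74 to 26.9). Rdh11 was 2.98-fold (2.35 to 3.81) and 4.59-fold (3.43 to 6.24) higher. Sdr16c5 and Dhrs9 were higher at both ages as well, from at most 0.507 FPKM in telogen to between 3.06 and 5.45 in anagen, and Sdr16c6 and Rdh1 were past the threshold in old mice, with log2 differences of 1.81 and 1.17, and at 0.99 and 0.89 in young mice. Lower at both ages were Adh1, by 5.33-fold (4.67 to 6.12) and 3.43-fold (2.95 to 3.99), Adh7, by 9.27-fold (6.20 to 14.4) and 4.29-fold (2.89 to 6.53), and Rdh14, by 2.19-fold (1.90 to 2.53) and 3.55-fold (3.05 to 4.15). The most abundant was Adh5, with 55.1, 51.8, 29.5 and 28.5 FPKM in OTD, YTD, OAD and YAD.

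Of 4 other genes of retinoic acid clearance and binding, 1 was past the threshold, upwards at both ages. This was Fabp5, which can carry retinoic acid to the receptor PPARD and was the most abundant pathway gene in anagen, with 109 FPKM in OTD and 98.6 in YTD, and 929 in OAD and 1177 in YAD. Of the 12 other receptors and co-regulators, Rxrg was lower past the threshold at both ages, 3.73-fold in old mice (2.99 to 4.69) and 9.21-fold in young mice (7.13 to 12.1). The co-activator Ncoa2 was past the threshold upwards in old mice, with a log2 difference of 1.12, and at 0.72 in young mice. Rxra, the most abundant by its mean, lay at 33.3, 52.1, 34.1 and 33.5 FPKM in OTD, YTD, OAD and YAD. Of 14 other target genes, Gprc5a was higher at both ages, 5.67-fold (4.51 to 7.20) and 6.03-fold (4.29 to 8.71). Lower at both ages were Tgm2, by 3.50-fold in old (3.32 to 3.70) and 6.23-fold in young mice (5.89 to 6.61), and Nr2f2, by 4.24-fold (3.44 to 5.25) and 3.26-fold (2.59 to 4.14). Rarres2, which encodes the adipokine chemerin, was lower by 6.45-fold in old (5.76 to 7.23) and 4.25-fold in young mice (3.77 to 4.81) and had the highest mean level of the list. Stra8 was listed at 0 in each library. Known targets lay on both sides, with Stra6, Crabp2 and Gprc5a higher and Rarb, Tgm2 and Rarres2 at lower levels in anagen.

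**Figure D4:**
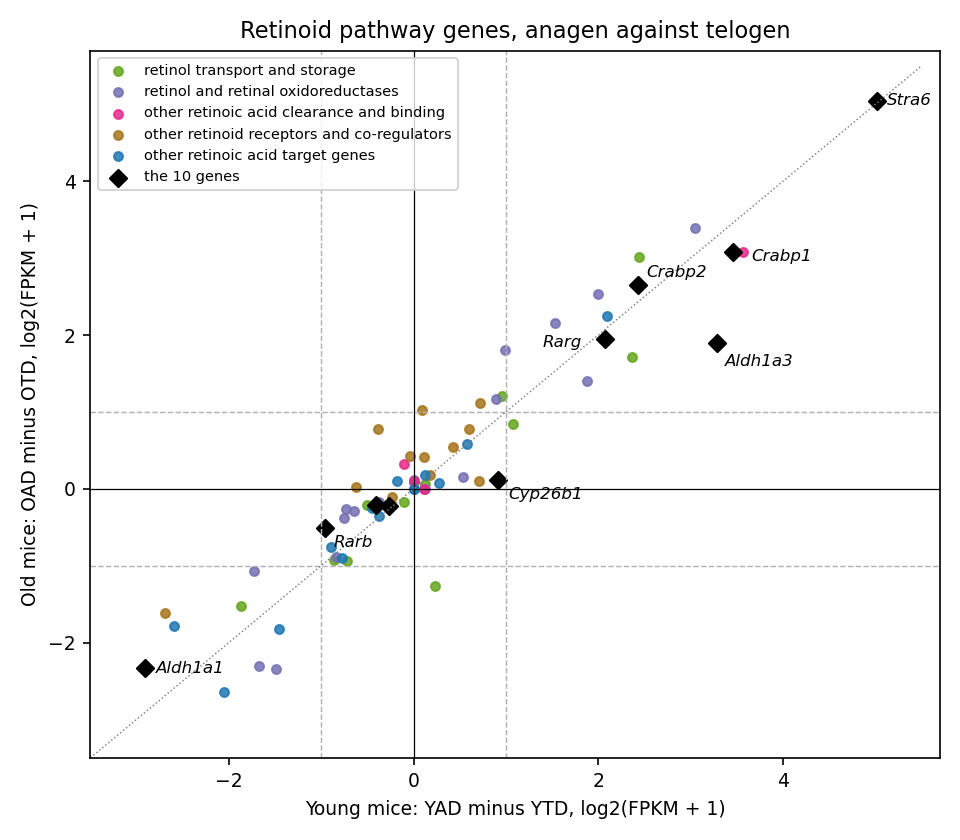
Difference between anagen and telogen on log2(FPKM + 1) in young mice (horizontal axis) and old mice (vertical axis) for the 60 genes of 5 retinoid lists (coloured points) and the 10 genes (black diamonds, Dhrs3 and Aldh1a2 unlabelled near the centre). Dashed lines mark the threshold of 1 and the dotted line equal differences at both ages. Aldh1a3 lies well below the dotted line, at 3.29 in young and 1.89 in old mice, and Stra6 lies at the far upper right.

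Marker lists of cell types moved with the phases alongside these genes. All 16 measured genes of hair shaft and inner root sheath were higher past the threshold in anagen at both ages, with none at 0. The epidermal list summed to 108 FPKM in OTD and 152 in YTD, and 2694 in OAD and 2095 in YAD, with 8 of 11 genes higher in old and 9 of 11 in young mice and Krt1 at 0 in YTD. The list of the dermal papilla, the signalling cells at the base of the HF, summed to 2.49, 4.03, 42.6 and 51.5 FPKM, with 6 and 7 of 8 genes higher. The melanocyte list summed to 16.2, 19.1, 465 and 760 FPKM, with 8 of 8 higher at both ages and none at 0. In the sebaceous gland list 1 of 5 genes was higher, Elovl3, which made up 39.3 of the summed 42.9 FPKM in OAD and 62.2 of 66.2 in YAD, beside sums of 2.65 in OTD and 3.54 in YTD, and Scd3 and Dgat2l6 were at 0 in at least 1 library. All 6 proliferation genes were higher at both ages, from sums of 8.02 and 10.6 to 133 and 166. These lists, apart from the sebaceous one, went with Stra6, Crabp1, Crabp2, Rarg and Aldh1a3, and their part in those differences was not tested.

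The adipocyte list went with Aldh1a1, with 10 of 12 genes lower past the threshold in OAD than OTD and 11 of 12 in YAD than YTD. All 10 endothelial genes were lower at both ages, from sums of 616 and 401 FPKM in OTD and YTD to 161 and 122 in OAD and YAD. Macrophage genes were lower in 10 of 12 at both ages, from 839 and 513 to 108 and 138, dermal fibroblast genes in 8 of 9 and 7 of 9, from 1568 and 1126 to 217 and 426, and muscle genes in 9 of 10 and 10 of 10. None of the markers of these 5 lists was at 0 in any library. Their part in the lower level of Aldh1a1 was not tested. With age in anagen, where Aldh1a3 was lower in OAD, the fibroblast list had 3 of 9 genes lower past the threshold and the melanocyte list 1 of 8, against 0.454% of all genes. All 8 melanocyte genes were at lower levels, as were 12 of 12 macrophage, 6 of 6 proliferation, 8 of 9 fibroblast and 7 of 8 dermal papilla genes. At higher levels were 12 of 12 adipocyte, 10 of 10 endothelial, 10 of 11 epidermal and 8 of 10 muscle genes. The part of any of these lists in the level of Aldh1a3 was not tested. With age in telogen, 7 of 8 immediate early genes were higher past the threshold in OTD, against 1.67% of all genes. These genes respond within minutes to handling and stress, and their summed FPKM was 626 in OTD against 175 in YTD. None of the 10 retinoic acid genes was past the threshold there. In anagen all 8 immediate early genes were at higher levels in OAD, 2 of them past the threshold, against 0.727%. Among cell type lists in telogen, all 16 measured hair shaft and inner root sheath genes were at lower levels in OTD. Of these, 6 were past the threshold, against 1.93%. Lower too were 10 of 10 muscle and 9 of 11 epidermal genes, and higher were 10 of 10 endothelial and 11 of 12 macrophage genes.

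**Figure D5:**
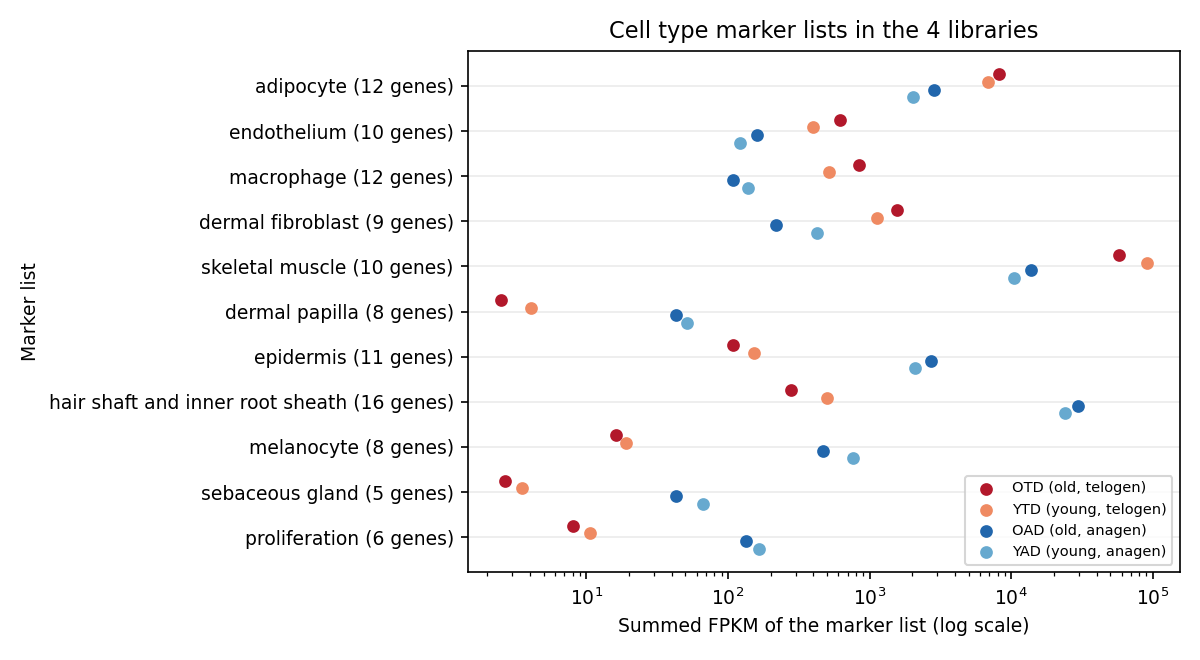
Summed FPKM (horizontal axis, log scale) of 11 marker lists (vertical axis, with the number of genes measured) in the 4 libraries. Each point is 1 library. Adipocyte, endothelium, macrophage, fibroblast and muscle sums are lower in OAD and YAD than in OTD and YTD, and those of dermal papilla, epidermis, hair, melanocyte and proliferation are higher, as is the sebaceous gland sum, which Elovl3 carries.

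For the 3 genes with the widest range over the libraries, the genes with the most similar profile were sought, by the distance between log2(FPKM + 1) values over the 4 libraries after each gene's mean was taken away. Nearest to Stra6 were Cryba4 (distance 0.25), Foxq1 (0.25) and Ctse (0.28). Foxq1, a transcription factor gene known for its part in hair shaft structure, lay at 0.999, 0.886, 78.7 and 58.1 FPKM in OTD, YTD, OAD and YAD. Nearest to Crabp1 were the mitotic kinase gene Aurkb (0.05), Fabp5 (0.08) and Whrn (0.10). Nearest to Aldh1a3 were the metallothionein gene Mt2 (0.11), with 291, 234, 1080.5 and 2049 FPKM, Rnaset2b (0.32) and the homeobox gene Msx1 (0.33). With 4 libraries these are descriptions of likeness only.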

How the data were processed

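RNA from dWAT was sequenced in 4 libraries, 1 each for OTD, YTD, OAD and YAD. The values deposited by the authors are FPKM of 22913 genes, with GRCm38 positions. TopHat2 and bcl2fastq are named in the submitters' processing notes, and the counting tool, its annotation and any scaling between libraries are not given in the sources used here. Of 22166 Ensembl identifiers, 21750 were matched to a symbol, and overlap and coding length were checked in GENCODE.

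The FPKM were used as deposited, on the log2(FPKM + 1) scale. For depth, features between 3000 and 8000 bp were used, where FPKM times length steps by the worth of 1 fragment, and the estimate is rough. The 95% intervals cover counting error only, and the floor of a gene, 3 fragments, lay below each of the 10 genes in each library. The 10 genes and the lists were chosen with earlier results of these data known. Named beside the 10 were pathway genes past the threshold in any comparison, the most abundant gene of each list and the 3 nearest profiles of 3 genes, except a few that are not reported here. Others (Rara, Aldh1a7, Ccdc33, Cyp26a1, Cyp26c1, Stra8 and markers) were named after their values were seen.

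Alternatives were pseudocounts of 0.1 and 0.01, an FPKM filter of 1, a 1.5-fold threshold, a median of ratios over 15507 genes, TPM, and TPM without mitochondrial genes or also without muscle, keratin and keratin-associated genes. The size factors of the median of ratios ran from 0.986 (OTD) to 1.02 (YTD), so this alternative lay close to the deposited values. The steps were tested on simulated data with counting error only and planted changes in well-expressed genes. Such data cover neither weakly expressed genes nor differences between mice or in scaling. The software was Python 3.11.15 with scipy 1.17.1, pandas 2.3.3, matplotlib 3.10.9 (figures) and numpy 2.4.6. The tissue fields and ages came from the labels, and the protein sequences of the 10 genes were not used here.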

Additional observations from a re-analysis of the deposited data

Results flagged for a closer look

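For 6 of the 10 genes the difference between old and young mice had opposite signs in telogen and anagen. The share of all genes with opposite signs was not computed, so this count is not read as a trait of the list. The difference of the differences (telogen minus anagen, log2(FPKM + 1)) was not tested, since each rests on 4 single libraries. It was 1.39 for Aldh1a3, which was 1.53-fold higher in OTD than YTD and 2.10-fold lower in OAD than YAD, and it ranged from 1.39 to 1.79 over the scalings. For Cyp26b1 it was 0.81, with a 1.64-fold higher level in OTD and a 1.44-fold lower level in OAD. For Aldh1a1 it was -0.57, with a 1.07-fold lower level in OTD, whose sign depends on the scaling, and a 1.41-fold higher level in OAD. The values were 0.38 for Crabp1, -0.45 for Rarb and 0.13 for Rarg, and for these 3 genes the counting interval of the ratio included 1 in at least 1 of the phases.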

How the results depend on the processing

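No paired analysis was possible because each group has 1 library, and no library could be left out for the same reason. These counts and medians over the 10 genes moved. With genes kept at an FPKM of at least 1 the median between phases was 1.89 in old and 2.08 in young mice (1.0 and 1.5 without the filter), as fewer genes entered, and in TPM it was 2.20 in young mice. At a 1.5-fold threshold 1 gene was higher in OAD than YAD (0 at the threshold used) and 2 were lower in YAD than YTD (1). With pseudocounts of 0.1 and 0.01, 3 and 3 were lower in YAD than YTD, with Rarb and Aldh1a2 added. The count higher in YAD than YTD went from 5 to 6, with Cyp26b1 added, under both pseudocounts and the 3 TPM scalings, and was also 6 at the 1.5-fold threshold. With a median of ratios 0 were lower in OAD than YAD (1, Aldh1a3). The 6 calls between phases held in old and in young mice under the alternatives run. Of the values of single genes, 4 of 67 moved beyond counting error with age in telogen, 11 of 69 with age in anagen, 10 of 69 between phases in old and 19 of 69 in young mice, and none of the called differences changed sign. Signs of small differences changed for Aldh1a1 (age in telogen), Stra6 (age in anagen), Cyp26b1 (phase in old mice) and Dhrs3 (phase at both ages). The share of higher genes among all past the threshold in telogen was 70.8% when mitochondrial genes were left out of TPM, in place of 46.3%. Depth limits Aldh1a2 in each library and Crabp1 in telogen.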

Other observations

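The RXR genes, partners of the RARs, changed in make-up within each library. Rxrg held 16.4% of the summed RXR FPKM in OTD and 18.3% in YTD, and 4.68% in OAD (95% exact binomial interval 3.85% to 5.62%) and 2.86% in YAD (2.23% to 3.62%). The share of Rxrb was 35.8%, 29.9%, 43.3% and 49.0% in the same order, and that of Rxra stayed between 47.8% and 52.0%. The sum of the 3 genes was 69.8 FPKM in OTD and 100.6 in YTD, and 65.5 in OAD and 69.7 in YAD, with YTD above the rest and YAD next to OTD. The RARs summed to 27.3, 29.0, 77.3 and 80.4 FPKM in the same order, with both anagen sums above.

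Among the pathway genes, Gprc5a came closest to the threshold with age in both phases on the log2(FPKM + 1) scale. It lay at 4.0 FPKM in OTD against 1.85 in YTD and 22.7 in OAD against 11.2 in YAD. Its log2 differences of 0.81 and 0.96 were short of the threshold. Rbp7 had opposite signs, 0.59 in telogen and -0.91 in anagen, and this was not tested. These genes were picked after their values were seen.

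The promoter windows of the listed genes varied in base composition. The window of Aldh1a2 had 78% G and C and 50 CpG sites, and that of Aldh1a1 47.0% and 1, where the median of 32851 windows was 52.7% and 7.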
